A study of Homo sapiens with 18 samples.

Results

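The p53 target genes followed here are 35 genes that p53 is known to switch on, chosen by name and grouped by what their products do. Of these, 30 had an entry among the 20705 genes of the count table, and TP53INP1, TRIAP1, SPATA18, TP53I3 and TRIM22 were not analysed here. The arrest group held 7 genes (CDKN1A, BTG2, CCNG1, PLK2, PLK3, SERTAD1 and GDF15) and the apoptosis group 11 (AEN, APAF1, BAX, BBC3, FAS, PERP, PHLDA3, TNFRSF10A, TNFRSF10B, TNFRSF10C and ZMAT3). The DNA repair group held 6 genes (ASCC3, DDB2, POLH, RPS27L, RRM2B and XPC) and the metabolism group 3 (CMBL, FDXR and SESN1). The remaining 3 genes (FBXO22, KITLG and RAP2B) belong to signalling and protein turnover and fit none of these 4 classes. No filter on low values was applied here. The genes APAF1, FBXO22, PLK3, POLH, SESN1, TNFRSF10A, TNFRSF10B and XPC overlap an exon of another gene on the opposite strand, and PHLDA3 and TNFRSF10C with one on the same strand. The study's methods state the default settings of HTSeq, which count by strand, whereas whether the library kit kept strand is not given in the sources used here. How far reads of neighbouring genes entered these counts was not tested.

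The transcription factor p53 is kept low in unstressed cells by the ubiquitin ligase MDM2 and its partner MDM4. When this restraint is lifted, p53 binds DNA as a tetramer at sites made of paired copies of a short motif and raises transcription of genes that stop the cell cycle, repair DNA, adjust metabolism or start cell death. Melanomas often keep wild type p53 but hold it back, whereas many point mutants of p53 no longer bind these sites.

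Both lines used, CHL1 and A375, derive from human melanomas. The study's methods give CHL1 as p53 mutant, without a BRAF or NRAS mutation and grown in DMEM, and A375 as p53 wild type, BRAF mutant and grown in RPMI-1640. Cells were treated with the vehicle DMSO (control), with 1 μM palbociclib, an inhibitor of the kinases CDK4 and CDK6 (CDK4/6i), or with 500 nM GSK3326595, an inhibitor of the arginine methyltransferase PRMT5 (PRMT5i). Each line had a control, CDK4/6i and PRMT5i at 72 hours and CDK4/6i at 6 days, and A375 also had a control at 6 days. Each of these 9 groups held 2 libraries, so that there were 8 CHL1 and 10 A375 libraries. The 6-day CHL1 libraries were compared with the 72-hour CHL1 control and the 6-day A375 libraries with their own control. Line, p53 status, medium and, at 72 hours, library set differ together between the lines and cannot be told apart, and each line stands for its p53 status alone.

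Total counts per library lay between 16213475 and 37424081. The melanocyte regulator MITF stood at 63.8 to 211 CPM (counts relative to library size after TMM scaling) in all 18 libraries. The pigment genes PMEL and TYR reached at most 3.25 and 5.02 CPM, and DCT lay at 36.3 to 142 CPM in CHL1 and at most 1.79 CPM in A375. Of the other melanocyte genes listed, SOX10 and MLANA had no entry in the count table, and the level of S100B is not given here. Markers of other cells stood at 0 to 10.5 CPM (keratinocyte genes KRT5 and KRT14) and 0.201 to 28.9 CPM (fibroblast genes PDGFRB and COL1A1), and the leukocyte gene PTPRC at 7.41 to 16.8 CPM in CHL1 and at most 0.588 CPM in A375. In both CHL1 PRMT5i libraries and both 6-day A375 controls, GC-rich genes were read less than GC-poor ones. The GC-richest minus the GC-poorest of 10 equal groups of genes lay there between -2.89 and -1.24 log2 units, relative to the median library of the line, against -0.19 to 0.54 in the other libraries. Called results that rest on these 4 libraries are therefore read beside their value with a correction for GC content, made on 13672 genes with a known GC content. How far GC content accounts for such a result was not tested.

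To show what p53 is known to recognise in these genes, sites with the p53 consensus were sought within 3000 bases on either side of the start of the canonical transcript (GRCh37, GENCODE 44). A site here is the p53 consensus of 20 bases, made of 2 abutting repeats. The C and G of the core of both repeats had to be present, with at most 2 mismatches at the other positions, and because the consensus reads the same on both strands a single strand holds every site. The limit of 2 mismatches was chosen knowing that the upstream CDKN1A site carries 2. A site was found near 12 of the 29 members searched (41.4%) and near 678 of 14448 protein-coding genes (4.7%). These shares are descriptions, and a match in letters is neither shown binding nor a cause. FAS had no canonical transcript in this annotation and was not searched. Of the members called higher in at least 1 A375 comparison with control below, BBC3, FDXR, PERP, PHLDA3, PLK3, RPS27L, SERTAD1, SESN1 and XPC had no site. Sites are shown for 6 of the 12 members with one, picked with their values known because these carry the arrest, apoptosis and repair results. They therefore do not show how common sites are among members that rose. Each is written 5′ to 3′ on the strand of the gene, with the C and G of the cores in capitals.
CDKN1A: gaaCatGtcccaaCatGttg
BTG2: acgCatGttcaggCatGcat
GDF15: catCttGcccagaCttGtct
PLK2: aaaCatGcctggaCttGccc
ZMAT3: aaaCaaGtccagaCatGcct
DDB2: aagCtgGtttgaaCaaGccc
The CDKN1A site lies at chr6:36644226-36644245, centred at -2256 bases from the canonical start and within an exon of another transcript. The BTG2 site is at chr1:203272770-203272789, centred at -1868 bases, and that of PLK2 at chr5:57758101-57758120 on the minus strand, centred at -2198 bases, both outside the gene. The GDF15 site is at chr19:18496118-18496137, centred at -840 bases and in an intron of another transcript. The ZMAT3 site, at chr3:178787976-178787995 on the minus strand, lies in an intron 1612 bases past the start. The DDB2 site, at chr11:47236520-47236539, is centred 4 bases past the start in the untranslated part of an exon. The sites of PLK2 and ZMAT3 have 0 mismatches, that of DDB2 has 1, and those of CDKN1A, BTG2 and GDF15 have 2. In the 300-base RefSeq promoters (GRCh38.p14, 250 bases before to 50 after the start), an exact single repeat was present in 5 of 22 member promoters and in 681 of 12215 promoters (5.6%), and a full site in that of AEN alone among the members and in 25 promoters (0.2%).

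In the vehicle controls, most of these genes were lower in the p53 mutant line. In the 72-hour controls, 20 of 30 members were called lower in CHL1 than in A375 and 3 higher, at an adjusted p below 0.05 by edgeR's quasi-likelihood test. Of all 20705 genes, 29.6% were lower and 29.3% higher, so the count of lower members lies above and that of higher members below what all genes show. The cyclin-dependent kinase inhibitor CDKN1A (p21) had 19.9 and 18.5 CPM in the CHL1 controls and 125 and 131 CPM in the A375 controls, with a log2 difference of -2.74 ± 0.31 (SE; edgeR adjusted p = 4.39e-07). GDF15, a secreted stress cytokine of the TGF-β superfamily, was close to absent in CHL1, with 5 and 2 reads in the controls and 0 to 7 reads in the other CHL1 libraries, against 12.5 and 14.7 CPM in the A375 controls. PLK2, a stress-responsive polo-like kinase, had 2.94 and 2.69 against 157 and 149 CPM, and the death receptor genes TNFRSF10A (1.55 and 1.10 against 48.2 and 47.5 CPM) and FAS (0.691 and 1.10 against 11.97 and 13.2 CPM) were likewise low in CHL1. The 3 members higher in CHL1 were SESN1, APAF1 and PERP, with log2 differences of 1.62 ± 0.18, 0.82 ± 0.20 and 0.60 ± 0.26. With the 6-day A375 control, which shares its library set with CHL1, 19 members were lower and 2 higher (31.5% and 29.5% of all genes). Since that control is one of the libraries poor in GC-rich reads, the comparison was repeated with the GC correction, and 18 members were then lower and 4 higher (33.9% and 38.1% of the genes in that fit). PERP and FDXR stood at -0.19 and 0.055 against the 6-day control, and at 0.55 and -0.79 with the GC correction, the signs they had against the 72-hour control. The correction works relative to the mean of each line, so a GC difference between the lines as a whole stays in these values. In these bulk libraries, fewer cells expressing a gene and less of its RNA per cell cannot be told apart. Per kilobase of transcript, BAX (65.0 CPM per kb) and CDKN1A (60.3 CPM per kb) had the highest levels among the members in the A375 control, and PERP (34.3 CPM per kb) and TNFRSF10B (31.6 CPM per kb) in the CHL1 control.

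In A375, the p53 wild type line, members rose under both inhibitors. Under PRMT5i, 13 of 30 members were up-regulated and 0 down-regulated, while 0.874% of all genes were up-regulated and 1.74% down-regulated. The median log2 fold change of the members was 0.87, and 28 of 30 lay above 0. An unadjusted p below 0.05 was found for 24 members and for 3332 of all 20705 genes. Among all genes at a mean level of 1 CPM or more the median lay between -0.01 and 0.06 in the 3 comparisons of A375 with control. At 72 hours of CDK4/6i, 9 members were up-regulated and 0 down-regulated, while 6.22% of all genes were up-regulated and 7.11% down-regulated, with a member median of 0.47. After 6 days of CDK4/6i, 12 members were up-regulated and 3 down-regulated, against 21.8% and 21.3% of all genes, with a member median of 0.37 (0.42 with the GC correction). After the GC correction 23 members were up- and 0 down-regulated under PRMT5i (4.01% and 6.61% of the genes in that fit), 14 and 0 at 72 hours of CDK4/6i (13.1% and 16.2%), and 15 and 1 at 6 days (20.8% and 21.5%).

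The number of called members in A375 depended on which libraries shared the estimate of spread. With only the A375 libraries of 72 hours in the fit, a choice made after seeing the data, 25 members were up-regulated and 0 down-regulated under PRMT5i (6.64% and 9.13% of all genes), and 18 and 0 at 72 hours of CDK4/6i (14.7% and 16.3%). With 1 library left out, most A375 calls under PRMT5i and at 72 hours of CDK4/6i were lost, and some of those at 6 days. The share of all genes called in such fits is not given. A loss particular to the members thus cannot be told apart from one of the whole fit. Under PRMT5i the log2 fold change then ran from 1.97 to 2.69 for BTG2, 2.28 to 2.92 for GDF15 and 0.95 to 1.37 for BAX. At 72 hours of CDK4/6i it ran from 1.45 to 1.59 for CDKN1A and 0.75 to 1.07 for BBC3. At 6 days it ran from 0.88 to 1.97 for CDKN1A and 0.49 to 1.53 for BAX. With the replicate number as a block, BBC3, PHLDA3 and FDXR lost their call at 72 hours of CDK4/6i (edgeR adjusted p = 0.0675, 0.0737 and 0.0653), as did FDXR under PRMT5i (edgeR adjusted p = 0.0526). In TMM-scaled CPM, both PRMT5i libraries lay above both controls for 25 members, both 72-hour CDK4/6i libraries for 22, and both 6-day CDK4/6i libraries for 16. Among all genes, 26.9%, 37.1% and 37.6% did so in these comparisons.

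**Figure D1:**
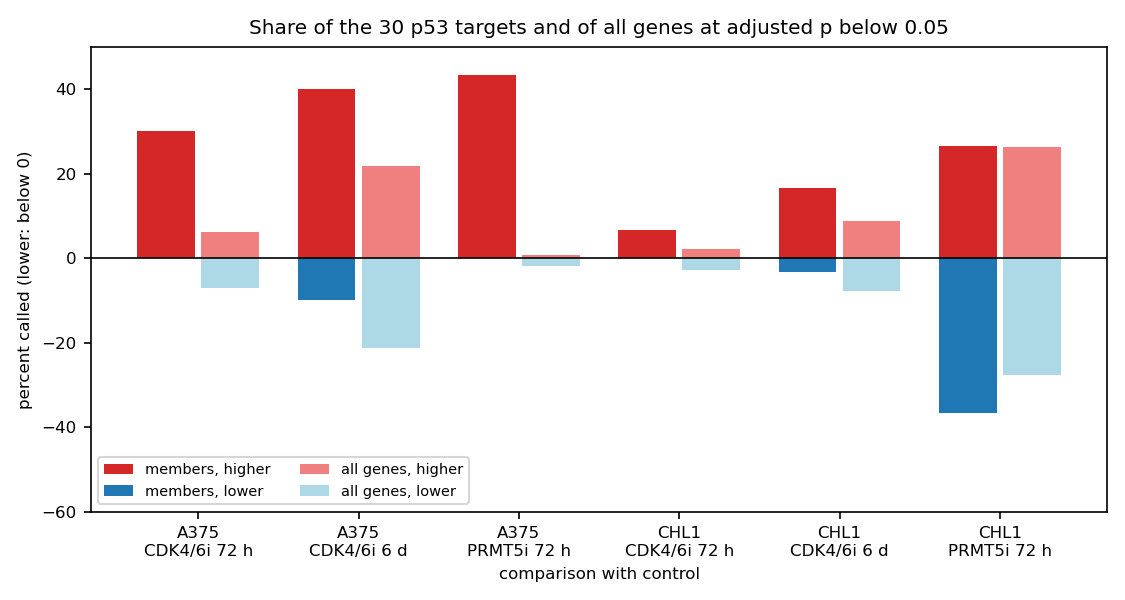
Percent of the 30 p53 targets (dark bars) and of all 20705 genes (light bars) called at adjusted p below 0.05 in each comparison with control (x axis), with higher genes above 0 and lower genes below 0 on the y axis. In A375 under PRMT5i, 13 members are called higher against 0.874% of all genes, whereas in CHL1 under PRMT5i the 8 members called higher stand beside 26.4% of all genes.

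In CHL1, the p53 mutant line, the membrane protein gene PERP and the RNA-binding protein gene ZMAT3 rose under CDK4/6i at both times. At 72 hours, 2 members (PERP and ZMAT3) were up-regulated and 0 down-regulated, while 2.27% of all genes were up-regulated and 2.72% down-regulated. At 6 days, 5 members (BTG2, PERP, ZMAT3, RRM2B and KITLG) were up-regulated and 1 (CMBL) down-regulated, against 8.83% and 7.8% of all genes. The member medians were 0.03 and 0.05 (0.03 and 0.07 without GDF15, which has too few reads in CHL1 for a fold change). Both times share the 72-hour control, so drug and time in culture cannot be told apart at 6 days, here or for the genes below. Leaving out any 1 library lost calls at 72 hours, and leaving out either control library lost calls at 6 days. The log2 fold changes then ran from 0.77 to 1.03 for PERP and 0.91 to 1.01 for ZMAT3 at 72 hours. At 6 days they ran from 1.26 to 1.83 for PERP, 1.34 to 1.41 for ZMAT3 and 0.72 to 1.28 for KITLG. Corrected for GC content, 4 members were up- and 1 down-regulated at 72 hours (7.79% and 9.13% of the genes in that fit), and 6 up- and 2 down-regulated at 6 days (15.2% and 17.8%). From the 72-hour to the 6-day A375 controls, mean levels rose for ZMAT3 (44.1 to 100.4 CPM), RRM2B (57.8 to 131.7), KITLG (9.67 to 22.2) and PERP (94.7 to 164). Those of BTG2 (13.6 to 11.1 CPM) and CMBL (89.95 to 40.4) fell. These A375 controls also differ in library set and GC trend.

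Under PRMT5i in CHL1, members went both ways, and those that rose and those that fell differed in GC content. Of the 30 members, 8 were up-regulated and 11 down-regulated, while 26.4% of all genes were up-regulated and 27.6% down-regulated, and the member median was -0.03 (-0.08 without GDF15). The 11 that fell (CDKN1A, BTG2, PLK3, SERTAD1, AEN, BAX, BBC3, PHLDA3, DDB2, CMBL and FDXR) had a median transcript GC content of 57.3%, with a range of 48.2 to 69.7%. The 8 that rose (APAF1, PERP, ZMAT3, ASCC3, RRM2B, SESN1, FBXO22 and KITLG) had a median of 38.9%, with a range of 35.1 to 41.8%, so the GC contents of these members do not overlap. Once GC content was corrected for, 5 members were up-regulated (PERP, TNFRSF10C, ASCC3, XPC and SESN1) and 7 down-regulated (BTG2, CCNG1, RPS27L, CMBL, FDXR, FBXO22 and RAP2B), against 16.9% and 17.1% of the genes in that fit. FBXO22, which codes for a substrate receptor of a ubiquitin ligase, then changed from 0.55 ± 0.16 to -0.52 ± 0.12. Members called in the same direction with and without the correction were PERP, ASCC3, SESN1, BTG2, CMBL and FDXR.

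**Figure D2:**
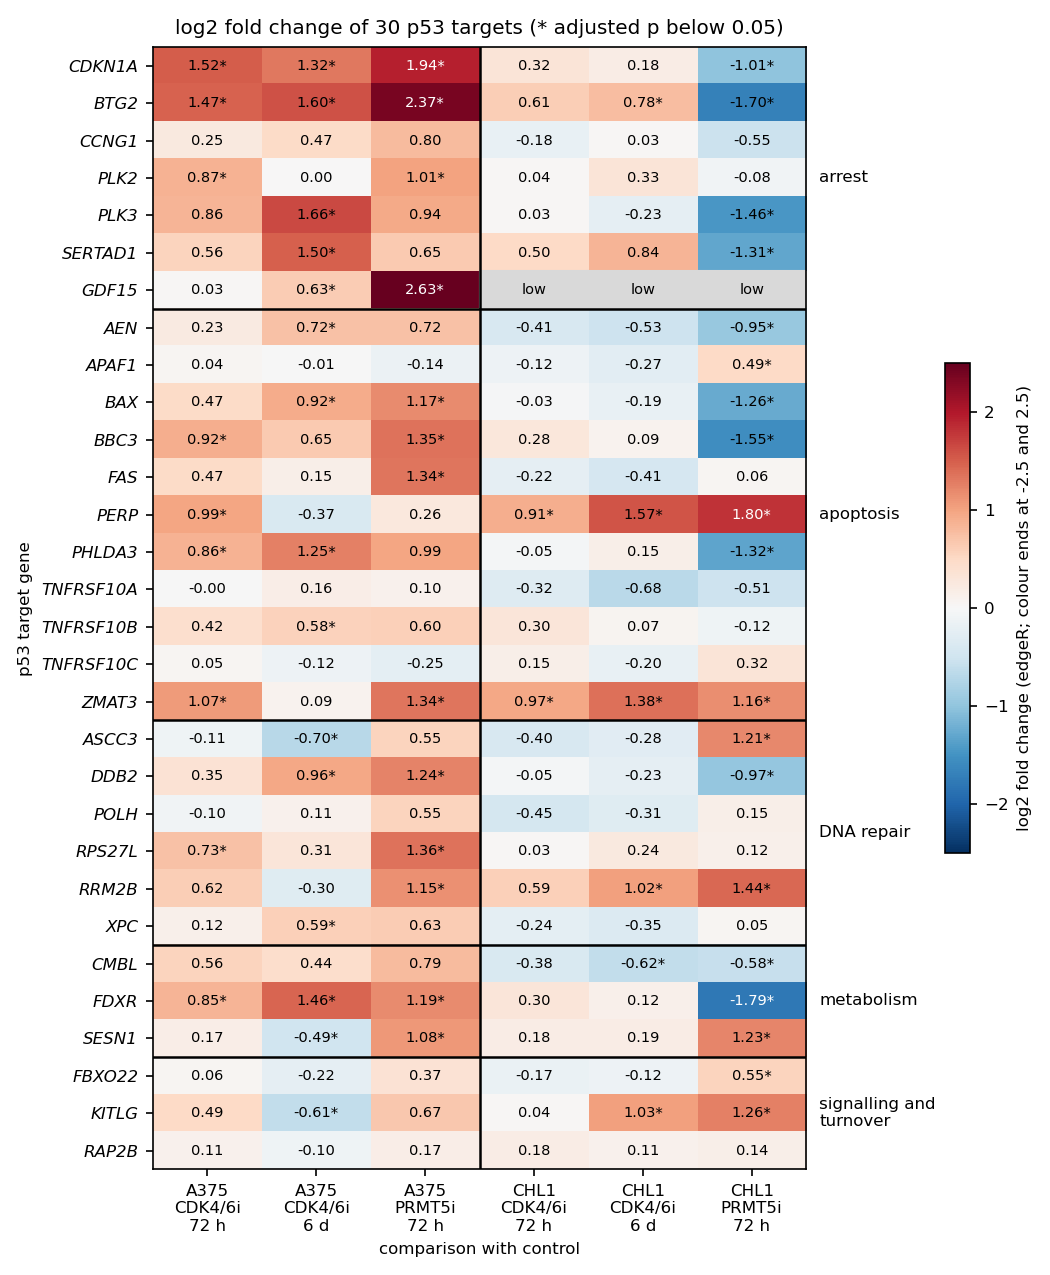
log2 fold change against control (numbers and colour, from blue for lower to red for higher) for the 30 p53 targets (y axis, grouped by function) in the 6 comparisons with control (x axis). An asterisk marks an adjusted p below 0.05, and GDF15 has too few reads in CHL1 for a fold change (low). CDKN1A, BTG2 and FDXR are starred in all 3 A375 columns and are lower in the CHL1 PRMT5i column, where no GC correction has been made.

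Among the arrest genes, CDKN1A and BTG2 rose in A375 under both inhibitors and at both times. CDKN1A had 125 and 131 CPM in the 72-hour A375 controls, 363 and 400.2 CPM under CDK4/6i and 409.8 and 582 CPM under PRMT5i. Its log2 fold change was 1.52 ± 0.28 (edgeR adjusted p = 0.00215) and 1.94 ± 0.28 (edgeR adjusted p = 0.00305). At 6 days the controls had 60.4 and 124 CPM and the CDK4/6i libraries 212 and 254 CPM, so that the groups did not overlap at either time. The 6-day change of 1.32 ± 0.28 (edgeR adjusted p = 0.00155) was 0.84 ± 0.20 with the GC correction and stayed past the threshold (edgeR adjusted p = 0.00649). In CHL1 the gene had 19.9 and 18.5 CPM in the controls, 25.3 and 22.7 CPM at 72 hours and 25.3 and 17.7 CPM at 6 days of CDK4/6i, and neither time passed the test. The PRMT5i libraries of CHL1 were lower, at 6.54 and 12.2 CPM, a log2 change of -1.01 ± 0.27 (edgeR adjusted p = 0.00796) that became -0.06 ± 0.20 (edgeR adjusted p = 0.856) with the GC correction.

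BTG2, an antiproliferative factor that recruits the deadenylation machinery to mRNAs, rose under both inhibitors in A375 and went opposite ways under the inhibitors in CHL1. It had 11.5 and 15.6 CPM in the 72-hour A375 controls, 31.3 and 47.05 CPM under CDK4/6i and 53.4 and 88.8 CPM under PRMT5i. The log2 fold changes were 1.47 ± 0.28 and 2.37 ± 0.28 (edgeR adjusted p = 0.00257 and 0.00077). After 6 days it went from 8.98 and 13.3 to 34.8 and 33.00 CPM, a change of 1.60 ± 0.28 (edgeR adjusted p = 0.000379), or 1.31 ± 0.26 with the GC correction, past the threshold. In CHL1 it stood at 10.3 and 11.2 CPM in the controls, 16.5 and 16.4 CPM at 72 hours and 19.1 and 17.4 CPM at 6 days of CDK4/6i, and 3.42 and 3.12 CPM under PRMT5i. The CHL1 libraries under CDK4/6i thus all lay above the controls and both PRMT5i libraries below them. The rise passed the test at 6 days (0.78 ± 0.18, edgeR adjusted p = 0.0127), and the fall under PRMT5i (-1.70 ± 0.19, edgeR adjusted p = 8.79e-05) also passed with the GC correction (-1.40 ± 0.16, edgeR adjusted p = 0.000345).

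GDF15 responded to PRMT5i and not detectably to CDK4/6i at 72 hours. It had 12.5 and 14.7 CPM in the 72-hour A375 controls, 13.2 and 15.8 CPM under CDK4/6i and 66.3 and 105 CPM under PRMT5i. Its log2 fold change under PRMT5i, 2.63 ± 0.23 (edgeR adjusted p = 0.000106), was the largest of any member in A375, and the direct difference between PRMT5i and CDK4/6i was 2.60 ± 0.23 (edgeR adjusted p = 5.6e-05). After 6 days it went from 4.93 and 3.98 to 6.61 and 7.19 CPM (0.63 ± 0.24, edgeR adjusted p = 0.0408), which was -0.01 ± 0.28 with the GC correction. Both 6-day groups lay below both 72-hour controls. In CHL1 the reads are too few for a fold change.

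PLK3 and SERTAD1 passed the test in A375 at 6 days but not at 72 hours, although their 72-hour libraries under both inhibitors also lay above both controls. PLK3, a polo-like kinase of the stress response, had 11.4 and 14.02 CPM in the 72-hour controls, 20.6 and 27.5 CPM under CDK4/6i, 22.2 and 27.1 CPM under PRMT5i. Its 6-day libraries had 4.78 and 9.36 CPM in the controls and 20.2 and 24.7 CPM under CDK4/6i. SERTAD1, whose product binds CDK4 and is known to stimulate it, had 10.9 and 11.6 CPM in the 72-hour controls, 15.1 and 19.4 CPM under CDK4/6i and 13.98 and 21.6 CPM under PRMT5i. Its 6-day libraries had 4.33 and 9.86 CPM in the controls and 19.8 and 20.7 CPM under CDK4/6i, so that neither gene's groups overlapped at this time. The 6-day log2 fold changes were 1.66 ± 0.28 and 1.498 ± 0.32 (edgeR adjusted p = 0.000369 and 0.00159), and 1.10 ± 0.20 and 1.08 ± 0.27 with the GC correction, still past the threshold. PLK3 also passed at 72 hours after that correction, at 0.69 ± 0.20 under CDK4/6i and 0.86 ± 0.21 under PRMT5i. In CHL1, PLK3 had 6.94 and 6.84 CPM in the controls, 7.54 and 6.51 CPM at 72 hours and 5.45 and 6.25 CPM at 6 days of CDK4/6i, and 2.08 and 2.87 CPM under PRMT5i. SERTAD1 had 5.25 and 5.46 CPM in the CHL1 controls, 6.64 and 8.52 CPM at 72 hours and 9.64 and 9.40 CPM at 6 days of CDK4/6i, and 1.38 and 2.90 CPM under PRMT5i. Both were called lower in CHL1 under PRMT5i (-1.46 ± 0.23 and -1.31 ± 0.30), and neither with the GC correction (-0.26 ± 0.18 and -0.67 ± 0.26).

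PLK2 rose in A375 at 72 hours under both inhibitors, from 157 and 149 CPM to 295 and 287 CPM under CDK4/6i (0.87 ± 0.19, edgeR adjusted p = 0.00753) and 302 and 320.0 CPM under PRMT5i (1.01 ± 0.20, edgeR adjusted p = 0.0129). At 6 days the CDK4/6i libraries, at 96.9 and 119.5 CPM, overlapped the controls, at 91.95 and 123 CPM, with a change of 0.002 ± 0.19, or 0.03 ± 0.17 with the GC correction. CCNG1, which codes for cyclin G1, a partner of the phosphatase PP2A, passed in no comparison of treated with control cells, at 0.25 to 0.80 in A375 and -0.55 to 0.03 in CHL1. After the GC correction it was called higher in A375 at 6 days (1.18 ± 0.29) and lower in CHL1 under PRMT5i (-1.59 ± 0.28). Of the 7 arrest genes, 3 were called higher in A375 at 72 hours of CDK4/6i (6.22% of all genes), 5 at 6 days (21.8%) and 4 under PRMT5i (0.874%), and all 7 lay above 0 in these comparisons. The GC-corrected counts were 4, 5 and 5 (13.1%, 20.8% and 4.01% of the genes in that fit), with GDF15 at -0.18 ± 0.27 and -0.01 ± 0.28 at 72 hours and 6 days of CDK4/6i.

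**Figure D3:**
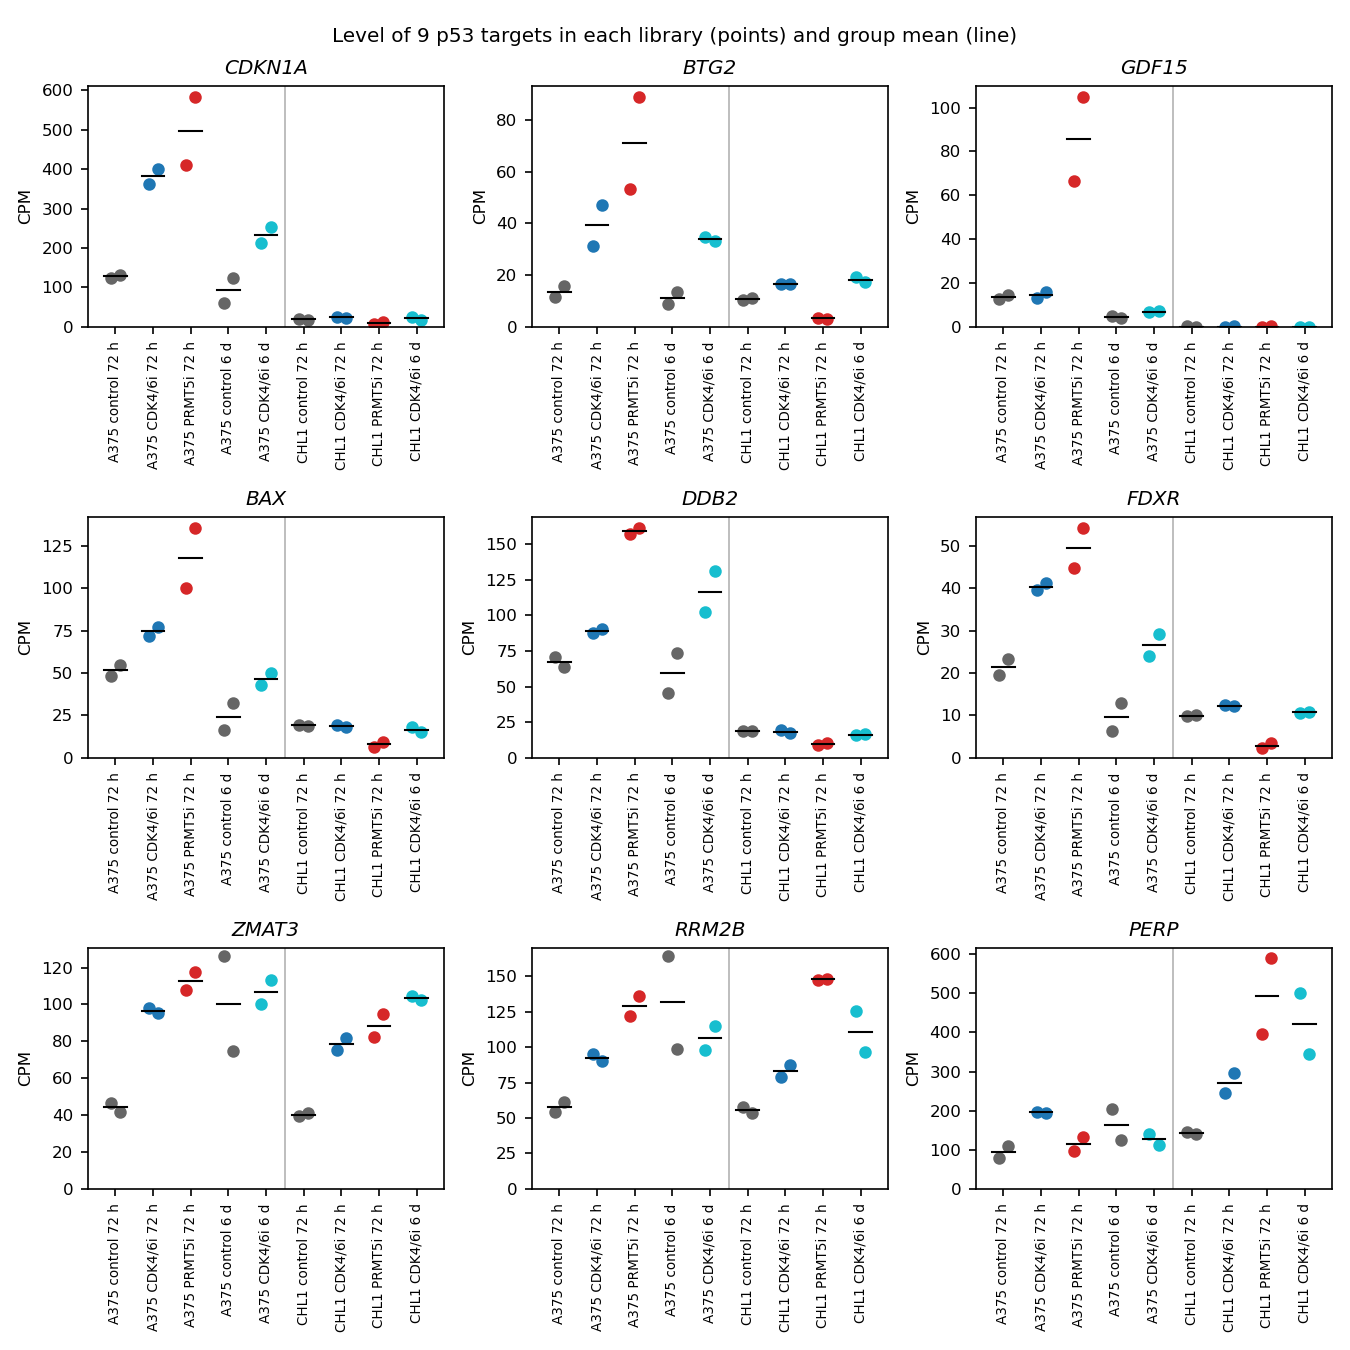
Level in CPM (y axis, starting at 0) of 9 p53 targets in every library, with 2 points per group and a line at the group mean, over the 9 groups (x axis; A375 left and CHL1 right of the vertical line). CDKN1A reaches 409.8 and 582 CPM in A375 under PRMT5i and 6.54 to 25.3 CPM in all CHL1 libraries, while ZMAT3, RRM2B and PERP reach similar or higher levels in CHL1.

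The apoptosis genes that rose under PRMT5i in A375 were BAX, BBC3, FAS and ZMAT3. BAX, which forms pores in the outer mitochondrial membrane, had 48.5 and 54.9 CPM in the 72-hour controls, 71.9 and 77.3 CPM under CDK4/6i and 100.2 and 136 CPM under PRMT5i, a change of 1.17 ± 0.26 (edgeR adjusted p = 0.0254) under PRMT5i. At 6 days it went from 16.4 and 32.2 to 43.1 and 49.7 CPM (0.92 ± 0.26, edgeR adjusted p = 0.00964), which was 0.37 ± 0.17 (edgeR adjusted p = 0.0962) with the GC correction. All treated A375 libraries lay above the controls of their time. In CHL1 BAX stood at 19.5 and 18.8 CPM in the controls, 19.6 and 17.9 CPM at 72 hours and 17.99 and 15.2 CPM at 6 days of CDK4/6i and 6.27 and 9.46 CPM under PRMT5i, where its change of -1.26 ± 0.22 became -0.08 ± 0.14 with the GC correction.

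BBC3 (PUMA), a BH3-only protein that frees BAX to act, followed the same order at lower levels. In A375 it had 9.36 and 9.58 CPM in the 72-hour controls, 16.5 and 20.7 CPM under CDK4/6i (0.92 ± 0.29, edgeR adjusted p = 0.0479) and 20.9 and 28.1 CPM under PRMT5i (1.35 ± 0.29, edgeR adjusted p = 0.023). With the replicate block BBC3 lost its 72-hour CDK4/6i call. At 6 days the controls had 2.88 and 5.98 and the CDK4/6i libraries 6.42 and 7.56 CPM, and the change missed the threshold (0.65 ± 0.30, edgeR adjusted p = 0.0891) but passed with the GC correction (0.65 ± 0.21, edgeR adjusted p = 0.0297). The CHL1 libraries had 1.80 and 2.55 CPM in the controls, 2.54 and 2.73 CPM at 72 hours and 2.86 and 1.67 CPM at 6 days of CDK4/6i, and 0.704 and 0.753 CPM under PRMT5i, where the change of -1.55 ± 0.35 became -0.11 ± 0.39 with the GC correction. With a GC content of 69.7%, BBC3 is the most GC-rich member.

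FAS, a death receptor of the cell surface, rose in A375 under PRMT5i, from 11.97 and 13.2 to 29.2 and 35.3 CPM (1.34 ± 0.20, edgeR adjusted p = 0.00303). Under CDK4/6i it had 18.8 and 17.7 CPM at 72 hours, between controls and PRMT5i, and at 6 days 24.6 and 29.1 CPM, overlapping the controls at 25.4 and 22.9 CPM. The 6-day change of 0.15 ± 0.19 was 0.76 ± 0.17 (edgeR adjusted p = 0.00448) with the GC correction. The difference between the inhibitors at 72 hours was 0.86 ± 0.19 (edgeR adjusted p = 0.0162). In CHL1 it was low throughout, at 0.691 and 1.10 CPM in the controls, 0.485 and 1.04 CPM at 72 hours and 0.991 and 0.286 CPM at 6 days of CDK4/6i, and 0.939 and 0.896 CPM under PRMT5i.

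PHLDA3, which competes with AKT for membrane lipids, passed under CDK4/6i at both times in A375. It had 57.05 and 56.8 CPM in the 72-hour controls, 106 and 110.4 CPM under CDK4/6i (0.86 ± 0.27, edgeR adjusted p = 0.0463) and 99.7 and 128 CPM under PRMT5i (0.99 ± 0.27, edgeR adjusted p = 0.0682). With the replicate block PHLDA3 lost its 72-hour CDK4/6i call. At 6 days it went from 26.3 and 56.9 to 91.2 and 109 CPM (1.25 ± 0.27, edgeR adjusted p = 0.00199), which was 0.75 ± 0.18 with the GC correction, past the threshold. All treated A375 libraries lay above the controls of their time, and the 72-hour levels under PRMT5i overlapped those under CDK4/6i. In CHL1 it had 14.3 and 11.8 CPM in the controls, 12.9 and 12.4 CPM at 72 hours and 13.1 and 15.7 CPM at 6 days of CDK4/6i, and 3.89 and 6.45 CPM under PRMT5i. The fall under PRMT5i (-1.32 ± 0.24) became -0.24 ± 0.16 with the GC correction.

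ZMAT3, an RNA-binding zinc finger protein, rose in both lines. In A375 it had 46.4 and 41.8 CPM in the 72-hour controls, 97.8 and 95.2 CPM under CDK4/6i (1.07 ± 0.21, edgeR adjusted p = 0.00336) and 108 and 117 CPM under PRMT5i (1.34 ± 0.21, edgeR adjusted p = 0.00572). In CHL1 it had 39.3 and 41.2 CPM in the controls, 75.6 and 81.9 CPM at 72 hours (0.97 ± 0.15, edgeR adjusted p = 0.00567) and 105 and 102 CPM at 6 days of CDK4/6i (1.38 ± 0.15, edgeR adjusted p = 0.000427). The treated libraries lay above the controls in all 4 of these comparisons, and the difference between lines in the 72-hour CDK4/6i response was -0.16 ± 0.27 (edgeR adjusted p = 0.941), less than 1 SE from 0. Under PRMT5i in CHL1 it had 82.2 and 94.6 CPM, a change of 1.16 ± 0.15 that was 0.13 ± 0.11 with the GC correction. The 6-day A375 controls stood at 126 and 74.6 CPM and the CDK4/6i libraries at 100.5 and 113 CPM, a change of 0.09 ± 0.21 that was 0.86 ± 0.11 (edgeR adjusted p = 0.000269) with the GC correction.

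PERP, a membrane protein of desmosomes that p53 also controls in cell death, rose in CHL1 in each comparison with control. In that line it had 147 and 141 CPM in the controls, 246 and 295 CPM at 72 hours and 501 and 345 CPM at 6 days of CDK4/6i, and 397 and 591 CPM under PRMT5i. The log2 fold changes were 0.91 ± 0.23, 1.57 ± 0.23 and 1.80 ± 0.23 (edgeR adjusted p = 0.0408, 0.00145 and 0.000132), the last 1.00 ± 0.20 with the GC correction. In A375 it rose at 72 hours of CDK4/6i, from 79.5 and 110.0 to 196 and 195 CPM (0.99 ± 0.24, edgeR adjusted p = 0.0113). Under PRMT5i it had 97.2 and 132 CPM in A375 (0.26 ± 0.23), and at 6 days 203 and 125 CPM in the controls and 141 and 112 CPM under CDK4/6i (-0.37 ± 0.23, or 0.15 ± 0.19 with the GC correction), and none of these values passed.

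The other apoptosis genes changed less. AEN, a nuclease of the apoptotic response, had log2 fold changes of 0.23 ± 0.20, 0.72 ± 0.20 and 0.72 ± 0.20 in A375 (72 hours and 6 days of CDK4/6i, then PRMT5i), and the 6-day value passed the test (edgeR adjusted p = 0.00911) but not with the GC correction (0.23 ± 0.11). TNFRSF10B, a receptor for the death ligand TRAIL, had 0.42 ± 0.17, 0.58 ± 0.17 and 0.60 ± 0.17 in the same order, also passing at 6 days (edgeR adjusted p = 0.0105, and 0.33 ± 0.10 with the GC correction, past the threshold). The TRAIL receptor TNFRSF10A, the decoy receptor TNFRSF10C, which lacks the part that signals death, and APAF1, the scaffold of the apoptosome, ranged from -0.25 to 0.16 in A375 and passed in none of these comparisons without the GC correction, with which TNFRSF10C was called lower at 6 days (-0.70 ± 0.22). The TNFRSF10 genes lie close together and resemble each other, so reads shared among them make their counts less certain. In CHL1 under PRMT5i, AEN fell (-0.95 ± 0.18) and APAF1 rose (0.49 ± 0.16), and with the GC correction they stood at -0.09 ± 0.13 and -0.16 ± 0.11.

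Among the DNA repair genes, DDB2, RPS27L and RRM2B rose under PRMT5i in A375. DDB2, which recognises UV damage in chromatin, had 70.4 and 63.4 CPM in the 72-hour controls, 87.5 and 90.4 CPM under CDK4/6i and 157 and 161 CPM under PRMT5i (1.24 ± 0.22, edgeR adjusted p = 0.0091). It was higher under PRMT5i than under CDK4/6i by 0.88 ± 0.22 (edgeR adjusted p = 0.0289), a call lost with the replicate block. At 6 days it went from 45.6 and 73.2 to 102 and 131 CPM (0.96 ± 0.22, edgeR adjusted p = 0.00264, and 0.52 ± 0.14 with the GC correction, past the threshold). All treated A375 libraries lay above the controls of their time. In CHL1 it had 19 and 19.04 CPM in the controls, 19.6 and 17.2 CPM at 72 hours and 15.7 and 16.6 CPM at 6 days of CDK4/6i and 8.75 and 10.4 CPM under PRMT5i, a change of -0.97 ± 0.18 that was -0.28 ± 0.13 with the GC correction.

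RPS27L codes for a ribosomal protein that resembles RPS27, so reads shared with that gene could be missing from its counts. In A375 it had 41.6 and 49.7 CPM in the 72-hour controls, 75.2 and 82.6 CPM under CDK4/6i (0.73 ± 0.19, edgeR adjusted p = 0.0198) and 97.99 and 139 CPM under PRMT5i (1.36 ± 0.20, edgeR adjusted p = 0.00281). Its 6-day libraries had 54.4 and 60.6 CPM in the controls and 68.2 and 74.4 CPM under CDK4/6i, a change of 0.31 ± 0.19 that did not pass, or 0.67 ± 0.20 (edgeR adjusted p = 0.0207), past the threshold, with the GC correction. All CHL1 libraries were lower than all A375 libraries, with 15.8 and 14.4 CPM in the controls, 16.6 and 14.2 CPM at 72 hours and 16.9 and 18.4 CPM at 6 days of CDK4/6i and 19.4 and 13.1 CPM under PRMT5i. Its CHL1 value under PRMT5i, 0.12 ± 0.21, was -0.54 ± 0.19 (edgeR adjusted p = 0.0459) with the GC correction.

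RRM2B, the p53-induced small subunit of ribonucleotide reductase that supplies nucleotides for repair, rose in both lines. In A375 it had 54.4 and 61.1 CPM in the 72-hour controls, 94.8 and 89.9 CPM under CDK4/6i (0.62 ± 0.21, edgeR adjusted p = 0.0617) and 122 and 136 CPM under PRMT5i (1.15 ± 0.21, edgeR adjusted p = 0.0107). In CHL1 it went from 57.6 and 53.1 CPM to 79.03 and 87.7 CPM at 72 hours and 126 and 96.3 CPM at 6 days of CDK4/6i, and the latter passed the test (1.02 ± 0.17, edgeR adjusted p = 0.00287). Both treated pairs in CHL1 lay above the controls. Under PRMT5i in CHL1 it had 148 and 148 CPM, a change of 1.44 ± 0.17 that was 0.18 ± 0.11 with the GC correction. The 6-day A375 libraries, 164 and 98.9 CPM in the controls and 98.01 and 115 CPM under CDK4/6i, overlapped, with a change of -0.30 ± 0.21 and, with the GC correction, of 0.80 ± 0.12 (edgeR adjusted p = 0.000536).

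XPC, which finds damaged bases for nucleotide excision repair, passed in A375 at 6 days (0.59 ± 0.17, edgeR adjusted p = 0.0115), though not with the GC correction (0.19 ± 0.10), and had 0.63 ± 0.17 under PRMT5i (edgeR adjusted p = 0.0614). POLH, a polymerase that copies past lesions, passed in none of the 6 comparisons with control, with 0.55 ± 0.18 in A375 and 0.15 ± 0.17 in CHL1 under PRMT5i. ASCC3, a helicase used in alkylation repair, fell in A375 at 6 days (-0.70 ± 0.18, edgeR adjusted p = 0.0069) and rose in CHL1 under PRMT5i (1.21 ± 0.16, edgeR adjusted p = 0.000138), and with the GC correction these values were -0.12 ± 0.12 and 0.33 ± 0.10. Of the 6 DNA repair genes, 3 were called higher in A375 under PRMT5i (0.874% of all genes), and 6 after the GC correction (4.01% of the genes in that fit).

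FDXR rose in A375 in each comparison with control. It codes for ferredoxin reductase, which passes electrons to mitochondrial enzymes. It had 19.6 and 23.4 CPM in the 72-hour controls, 39.5 and 41.2 CPM under CDK4/6i (0.85 ± 0.27, edgeR adjusted p = 0.0448) and 44.8 and 54.2 CPM under PRMT5i (1.19 ± 0.27, edgeR adjusted p = 0.0273). With the replicate block FDXR lost both of these calls. After 6 days it went from 6.31 and 12.9 to 24.04 and 29.1 CPM (1.46 ± 0.27, edgeR adjusted p = 0.000647, and 0.93 ± 0.17 with the GC correction, past the threshold). No treated A375 library overlapped the controls of its time. In CHL1 it had 9.88 and 10.1 CPM in the controls, 12.4 and 12.1 CPM at 72 hours and 10.6 and 10.9 CPM at 6 days of CDK4/6i and 2.28 and 3.40 CPM under PRMT5i, a change of -1.79 ± 0.22 that was -0.48 ± 0.16 (edgeR adjusted p = 0.0396) with the GC correction.

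SESN1, a sestrin that restrains the growth regulator mTORC1, rose under PRMT5i in both lines. In A375 it went from 15.9 and 16.2 to 31.8 and 36.97 CPM (1.08 ± 0.20, edgeR adjusted p = 0.0103), and it was higher than under CDK4/6i (17.6 and 19.9 CPM) by 0.92 ± 0.20 (edgeR adjusted p = 0.0135). In CHL1 it went from 47.4 and 51.4 to 112 and 116 CPM (1.23 ± 0.16, edgeR adjusted p = 0.000128, and 0.45 ± 0.11 with the GC correction). Its fall in A375 at 6 days (-0.49 ± 0.19, edgeR adjusted p = 0.049) was -0.003 ± 0.13 with the GC correction. CMBL, a cytosolic hydrolase, had 0.44 to 0.79 in A375 without passing the uncorrected test, and in CHL1 it fell at 6 days of CDK4/6i (-0.62 ± 0.18, edgeR adjusted p = 0.0378) and under PRMT5i (-0.58 ± 0.18, edgeR adjusted p = 0.018, and -0.52 ± 0.15 with the GC correction).

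Of the genes in signalling and turnover, KITLG, the ligand of the receptor KIT, rose in CHL1 at 6 days of CDK4/6i (1.03 ± 0.22, edgeR adjusted p = 0.00857) and under PRMT5i (1.26 ± 0.22, or 0.02 ± 0.14 with the GC correction). In A375 it was called lower at 6 days (-0.61 ± 0.23, edgeR adjusted p = 0.045), which turned to 0.45 ± 0.18 with the GC correction. RAP2B, a small GTPase of the RAS superfamily, ranged from -0.10 to 0.18 over the 6 comparisons with control and passed in none of them without the GC correction. FBXO22 passed, without the GC correction, in CHL1 under PRMT5i and in no other comparison with control. Its A375 values, -0.22 ± 0.17 at 6 days and 0.37 ± 0.17 under PRMT5i, were 0.57 ± 0.12 and 0.47 ± 0.12 with the correction, both past the threshold.

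Compared directly at 72 hours in A375, PRMT5i gave higher levels than CDK4/6i for 5 members (GDF15, FAS, ASCC3, DDB2 and SESN1) and lower levels for 0, while 2.37% of all genes were higher and 3.09% lower. With the replicate block ASCC3 and DDB2 lost this call (edgeR adjusted p = 0.068 and 0.053). With any 1 of the 4 libraries left out, FAS, ASCC3, DDB2 and SESN1 lost their calls. Their differences then ran from 0.574 (ASCC3) to 1.015 (SESN1), and that of GDF15 from 2.25 to 2.89. In CHL1 the same comparison called 8 members higher and 10 lower, against 28.4% and 29.4% of all genes, and 5 higher and 9 lower with the GC correction (24.6% and 23.4%).

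No member passed the test of a difference between the times. In A375, where each time has its own control, the CDK4/6i response at 6 days minus that at 72 hours was called for 0 members by edgeR. Of all genes, edgeR called 0.174% higher and 0.908% lower. An unadjusted p below 0.05 was found for 7 members and for 4118 of 20705 genes. DESeq2 called 0 members higher and 5 lower at 6 days, beside 182 and 964 of 20705 genes. With the GC correction edgeR called 0 members. Calls appeared when either 6-day control library was left out, most of them without replicate 2, and the share of all genes in those fits is not given. For CDKN1A the difference ran from -0.65 to 0.45 as each library was left out in turn. Over the 30 members the A375 responses at the 2 times, which share no library, correlated with a Pearson r of 0.50 (0.62 with the GC correction). The Spearman rank correlation was 0.39 without that correction. No correlation over all genes is given, so nothing particular to the members is read from these values. In CHL1, 6 days against 72 hours of CDK4/6i called 0 members by edgeR, and 0.0145% of all genes were higher and 0.0% lower. There 4 members and 1634 of 20705 genes had an unadjusted p below 0.05, and DESeq2 called 1 member and 63 genes.

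The response to PRMT5i differed between the lines for most members. In a test of the CHL1 response minus the A375 response over all 18 libraries, 18 of 30 members were called lower in CHL1 and 2 higher (PERP and ASCC3), while 22.1% of all genes were lower and 18.8% higher. With the GC correction, 23 were lower and 1 (TNFRSF10C) higher (12.2% and 13.6% of the genes in that fit). The arrest genes other than GDF15 were all among the lower ones in both fits. GDF15 was also called lower without the correction, but on 0 and 7 reads in the CHL1 PRMT5i libraries, and 4 of the 8 fits that left out 1 library lost that call, so no size is read from it. BTG2 had the largest difference among members with reads in CHL1, -4.10 ± 0.38 (edgeR adjusted p = 1.56e-05) and -3.76 ± 0.36 with the GC correction. CDKN1A differed by -2.99 ± 0.42 (edgeR adjusted p = 0.00017) and -1.94 ± 0.31, FDXR by -3.02 ± 0.38 and -1.58 ± 0.24, and DDB2 by -2.24 ± 0.28 and -1.46 ± 0.18. ZMAT3 differed by -0.21 ± 0.27, which did not pass, and by -1.30 ± 0.16 (edgeR adjusted p = 0.000246) with the GC correction. Across 29 members the pattern is seen in the plot of the PRMT5i responses of both lines.

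**Figure D4:**
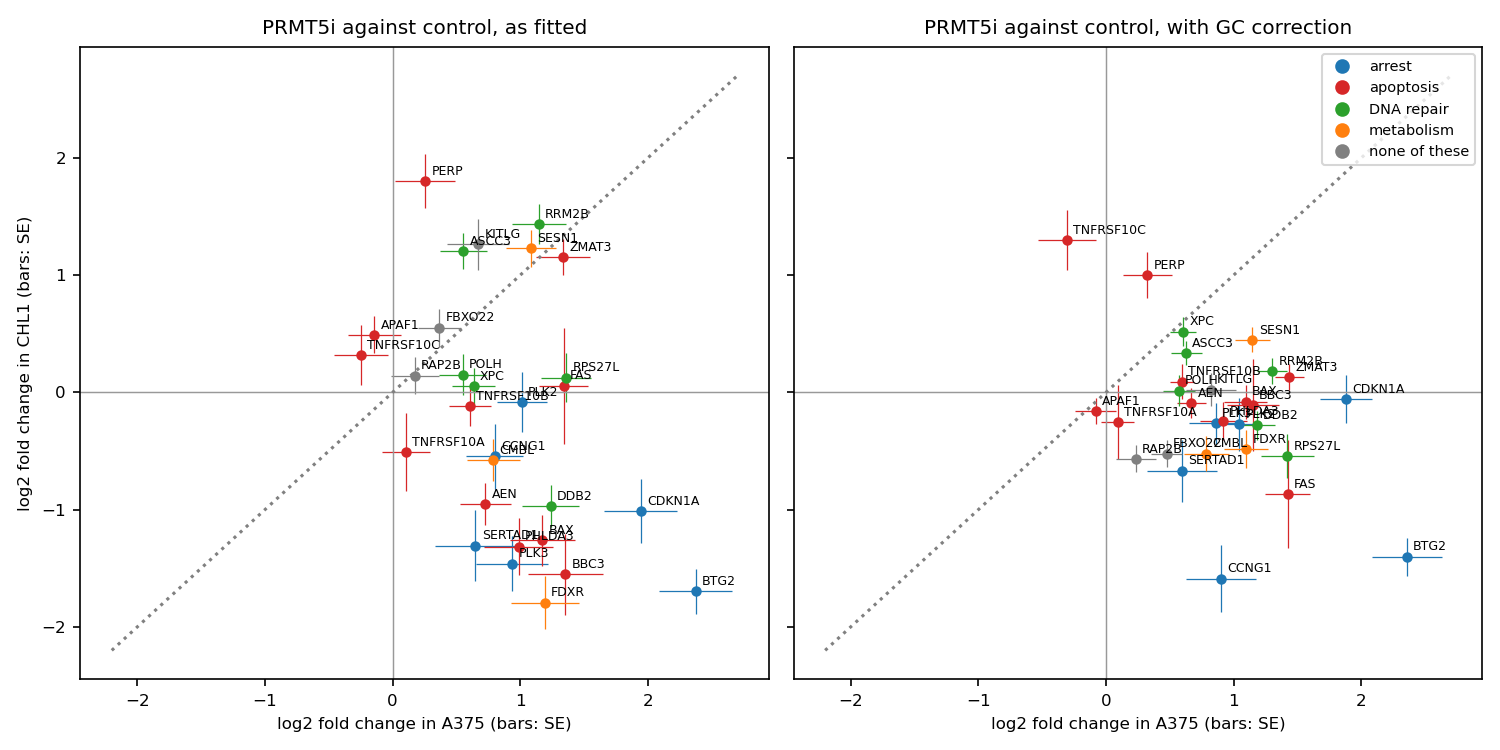
log2 fold change under PRMT5i in A375 (x axis) and in CHL1 (y axis) for 29 members, with bars of 1 SE and colours by function, as fitted (left) and with the GC correction (right). GDF15 is left out for its few reads in CHL1, and the dotted line marks equal response. BTG2 lies at 2.37 ± 0.28 and -1.70 ± 0.19, and with the GC correction at 2.35 ± 0.27 and -1.40 ± 0.16, while CDKN1A moves from -1.01 ± 0.27 to -0.06 ± 0.20 in CHL1.

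For CDK4/6i at 72 hours no member passed the test of a difference between the lines. The difference was called for 0 members by edgeR, while 0.241% of all genes were higher and 0.401% lower in CHL1. An unadjusted p below 0.05 was found for 8 members and 2073 of 20705 genes, and DESeq2 called 1 member and 368 genes. The median difference of the members was -0.44, against -0.03 among all genes. It lay below 0 for 28 of 30 members, but these are measured in the same libraries and are not independent. The share of all genes below 0 is not given. CDKN1A had -1.25 ± 0.41 (edgeR adjusted p = 0.222), which passed with the GC correction (-1.16 ± 0.30, edgeR adjusted p = 0.0442). At 6 days, 8 members were lower in CHL1 (PLK3, AEN, BAX, PHLDA3, DDB2, XPC, CMBL and FDXR) and 4 higher (PERP, ZMAT3, RRM2B and KITLG), while 9.51% of all genes were lower and 12.4% higher. Corrected for GC content, 10 were lower and 2 higher (12.0% and 12.4% of the genes in that fit). Without 6-day A375 control replicate 2 the count rose to 20. The 6-day A375 response is measured against a 6-day control and that of CHL1 against a 72-hour one, so time in culture and drug cannot be told apart in CHL1.

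Members with a p53 consensus site within 3000 bases and those without can be set side by side, here without the GC correction. In A375 under PRMT5i, 8 of the 12 members with a site and 4 of the 17 without were up-regulated, beside 0.874% of all genes. Their median log2 fold changes were 1.16 and 0.63. How genes outside the members responded with and without a site was not looked at. At 72 hours of CDK4/6i the medians were 0.52 and 0.17, and at 6 days 0.61 and 0.11. In CHL1 they were 0.05 and 0.03 at 72 hours, 0.05 and 0.09 at 6 days, and -0.56 and 0.14 under PRMT5i. The medians of A375 at 6 days and of CHL1 under PRMT5i rest on the libraries poor in GC-rich reads. No corrected medians were made for them, so no site difference is read from these. No test was made, since few genes stand behind each median and members were chosen by name.

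MDM2, a p53 target that in turn restrains p53, rose in A375 under PRMT5i, from 142 and 156 to 356 and 436 CPM (1.40 ± 0.18, edgeR adjusted p = 0.00147). In CHL1 under PRMT5i MDM2 had 0.68 ± 0.17, or -0.22 ± 0.13 with the GC correction. Of 19 further p53 targets, listed with results of these data known, 7 rose and 0 fell in A375 at 72 hours of CDK4/6i (6.22% and 7.11% of all genes), 11 rose and 3 fell at 6 days (21.8% and 21.3%), and 7 rose and 0 fell under PRMT5i (0.874% and 1.74%). Their medians were 0.54, 0.88 and 0.58. With the GC correction 12 of 18 rose and 2 fell at 6 days (20.8% and 21.5% of the genes in that fit). Among the 19 were SESN2, another sestrin (0.78 ± 0.22, 1.25 ± 0.22 and 1.04 ± 0.22), and CD82, a membrane tetraspanin (1.2 ± 0.24, 1.71 ± 0.24 and 1.10 ± 0.24). Others went the other way at 6 days. From control to CDK4/6i, mean levels without the GC correction fell for PMAIP1 (38.8 to 17.6 CPM), GADD45A (23.3 to 14.6 CPM) and REV3L (257.7 to 131.6 CPM). In CHL1, 4 rose and 0 fell at 72 hours (2.27% and 2.72% of all genes) and 5 rose and 0 fell at 6 days (8.83% and 7.8%). Under PRMT5i in CHL1, 2 rose and 9 fell (26.4% and 27.6%), and 0 and 2 of 18 with the GC correction (16.9% and 17.1%). CD82 also rose in CHL1 under CDK4/6i (1.196 ± 0.25 and 1.11 ± 0.25).

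Proliferation genes fell in the same libraries in which members rose. Of 8 such genes (MKI67, CCNA2, CCNB1, CDK1, E2F1, MCM2, MCM5 and TOP2A), 8 fell in A375 at 72 hours of CDK4/6i, 5 at 6 days and 4 under PRMT5i (7.11%, 21.3% and 1.74% of all genes), with medians of -1.53, -1.02 and -0.81. In CHL1, 3 fell at 72 hours and 3 at 6 days of CDK4/6i (2.72% and 7.8%), with medians of -0.77 and -0.57. Under PRMT5i in CHL1, 2 rose and 4 fell (26.4% and 27.6%), and 0 rose and 2 fell with the GC correction (16.9% and 17.1%), which left 7 of 8 lower in A375 at 6 days (21.5%). MKI67 went from 457 and 518 to 268 and 292 CPM in A375 under PRMT5i and from 411 and 353 to 177 and 161 CPM in CHL1 at 72 hours of CDK4/6i. Whether the change in the members depends on the change in cycling was not tested.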

How the data were processed

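Poly-A RNA of 18 libraries was sequenced. The authors aligned the reads to GRCh37 with HISAT 2.0.4 and counted them per gene with HTSeq (0.13.5 in the methods, 0.11.2 in the submitters' processing notes), removing low genes with edgeR. The deposited values are whole-number counts for 20705 gene symbols and were used as raw counts, although the name of the table calls them normalised. Totals were 16213475 to 37424081 per library, which limits genes at a few reads.

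Counts were scaled by TMM and tested with edgeR 4.0.16 (R 4.3.3) quasi-likelihood fits, one per line and one over all libraries for differences between lines. P-values were adjusted over all 20705 genes by the Benjamini-Hochberg method, and adjusted p below 0.05 was called. The ± values are standard errors, the absolute log2 fold change divided by the square root of F. CPM values use TMM over all 18 libraries. The GC correction removed a loess trend (span 0.4) on transcript GC content per library, relative to the mean of its line. It used genes at 1 CPM or more on average. A GC difference between the lines as a whole is not removed. For a gene with libraries at or below a floor of 3 reads no fold change against control is given. The difference between the lines is printed for GDF15, and counted where called, but is no measure of size. Each group holds 2 libraries, which the study's methods describe as replicates of each culture condition. Nothing in the sources used here says that they were separate experiments, so p-values measure the spread between these libraries. The fits have no block. In A375 at 72 hours, libraries of the same labelled number deviated together (r of 0.10 to 0.36 between the 3 pairs of groups). Calls within A375 that were lost with that number as a block are named with the counts of members.

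The members and the gene lists were chosen with earlier results of these data known. All 30 members are named, and values of every library are given for the 14 with the largest A375 change among the 16 called at a log2 fold change of 1 or more in an A375 comparison with control. Other members are given by range or value, a few with their libraries. The alternatives tried were a low-count filter (1 CPM in 2 libraries), scaling by the median of ratios, DESeq2 1.42.0, the compared groups alone, a replicate block, the GC correction, other A375 controls and leaving out each library.

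Sequences are from GRCh37 and RefSeq (GRCh38.p14). The window of 3000 bases and the limit on mismatches of the p53 sites were set after the gene list was known. The fits were tested on simulated data.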

Additional observations from a re-analysis of the deposited data

Results flagged for a closer look

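Members whose response differed between the lines in a test of the difference itself (CHL1 response minus A375 response, edgeR over all 18 libraries) are listed here with their log2 differences. In each comparison line, medium and p53 status differ together and cannot be told apart.

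Under PRMT5i the difference passed for 20 members. For the arrest genes it was -2.99 ± 0.42 for CDKN1A, -4.10 ± 0.38 for BTG2, -1.38 ± 0.35 for CCNG1, -1.12 ± 0.28 for PLK2, -2.43 ± 0.39 for PLK3, -1.99 ± 0.49 for SERTAD1 and -2.66 ± 1.02 for GDF15. The value of GDF15 rests on 0 and 7 reads in the CHL1 PRMT5i libraries, ran from -7.39 to -1.62 when 1 library was left out, and is no measure of size. For the apoptosis genes it was -1.71 ± 0.26 for AEN, -2.47 ± 0.36 for BAX, -2.94 ± 0.48 for BBC3, -1.31 ± 0.48 for FAS, -2.34 ± 0.40 for PHLDA3, -0.75 ± 0.22 for TNFRSF10B and 1.51 ± 0.36 for PERP. For the DNA repair genes it was -2.24 ± 0.28 for DDB2, -1.27 ± 0.28 for RPS27L, -0.61 ± 0.21 for XPC and 0.62 ± 0.24 for ASCC3, and for the metabolism genes -3.02 ± 0.38 for FDXR and -1.40 ± 0.27 for CMBL. With the GC correction 16 of the 20 kept their call, while ASCC3 stood at -0.29 ± 0.15, PERP at 0.68 ± 0.30, XPC at -0.09 ± 0.15 and GDF15 at -1.31 ± 1.16, none of which passed.

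After 6 days of CDK4/6i the difference passed for 12 members. It lay below 0 for PLK3 (-1.91 ± 0.38), AEN (-1.27 ± 0.26), BAX (-1.14 ± 0.36), PHLDA3 (-1.12 ± 0.39), DDB2 (-1.21 ± 0.28), XPC (-0.95 ± 0.21), CMBL (-1.08 ± 0.27) and FDXR (-1.36 ± 0.36). It lay above 0 for PERP (1.93 ± 0.36), ZMAT3 (1.27 ± 0.27), RRM2B (1.31 ± 0.28) and KITLG (1.63 ± 0.34). Corrected for GC content, 10 of the 12 kept their call, while RRM2B stood at 0.01 ± 0.16 and KITLG at 0.37 ± 0.24, which did not pass.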

How the results depend on the processing

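The counts of called members changed with the tool, the libraries in the fit and the GC correction. DESeq2 called 20 members in A375 under PRMT5i, 9 between PRMT5i and CDK4/6i in A375, 5 between the times in A375, 4 at 72 hours of CDK4/6i in CHL1, and 1 each between the times in CHL1 and between the lines at 72 hours of CDK4/6i. Of all 20705 genes it called 911, 1624, 1146, 1671, 63 and 368 in the same order. With only the 4 libraries compared in the fit, 18, 8 and 23 members were called in A375 at 72 hours of CDK4/6i, at 6 days and under PRMT5i, and 8 in CHL1 at 72 hours of CDK4/6i. Of all 20705 genes, 6940, 5862, 1861 and 4202 were called in the same order. With only the A375 libraries of 72 hours, added after seeing the data, the counts were 18 with CDK4/6i, 25 with PRMT5i and 15 between the inhibitors. Over all genes they were 6424, 3265 and 4571. The GC correction gave 14 in A375 at 72 hours of CDK4/6i, 23 with PRMT5i, 12 between the inhibitors there, 5 in CHL1 at 72 hours of CDK4/6i, 12 with PRMT5i, and 1 between the lines at 72 hours of CDK4/6i. Of the 13672 genes in these fits, 4010, 1452, 2586, 2313, 4641 and 553 were called. Restricting the genes to those with a GC value, without a correction, gave 1 between the times in A375, beside 268 of 13672 genes. The causes of these changes were not tested. A filter on low counts kept each count of members within 1.5 times, as did scaling by the median of ratios in the 6 comparisons with control, for which it was run.

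Deviations of CHL1 libraries of the same labelled number correlated at -0.23 to 0.27, with 0.27 between the control and CDK4/6i at 72 hours. Whether these libraries were paired is not known. With the replicate block, 1 member was called in CHL1 at 72 hours of CDK4/6i, 6 in CHL1 at 6 days and 19 under PRMT5i, and in A375 6 were called at 72 hours of CDK4/6i and 12 with PRMT5i. Of all 20705 genes, 796, 3167, 11151, 2332 and 336 were called in the same order. With the block, 4 and 18 members differed between the inhibitors in A375 and CHL1, 0 between the times in CHL1, and 0 and 18 between the lines with CDK4/6i for 72 hours and with PRMT5i. Of all genes, 798, 11889, 0, 78 and 8331 did so. The block with the GC correction gave 23 in A375 under PRMT5i and 6, 10 and 12 in CHL1 with CDK4/6i for 72 hours, for 6 days and with PRMT5i. Of the 13672 genes in these fits, 1530, 2566, 4754 and 4847 were called. No paired analysis was possible for the 6-day A375 comparisons because those libraries carry no replicate number in the labels, nor for the controls of the lines, which are different cells.

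Leaving out 1 library at a time, with the lone library of a group assumed to vary like the others, gave 2 to 3 called members in A375 at 72 hours of CDK4/6i, 9 to 21 at 6 days, 2 to 5 under PRMT5i, 1 between the inhibitors and 0 to 15 between the times. In CHL1 it gave 0 to 1 at 72 hours, 2 to 5 at 6 days, 16 to 19 under PRMT5i, 14 to 19 between the inhibitors and 0 between the times. Between the lines it gave 20 to 22 in the controls, 0 at 72 hours of CDK4/6i, 9 to 20 at 6 days and 15 to 19 under PRMT5i.

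Under the other settings, member values called in the main fit were followed, and for CDKN1A also those not called there. Of these, 930 were unchanged, 76 lost the call and 22 called values changed sign. Unchanged means the same direction and call, or, for a CDKN1A value not called in the main fit, no call gained in its direction. The 3 values that gained a call are all of CDKN1A, and calls gained by other members are not counted here. With the GC correction GDF15 (-0.015) and KITLG (0.448) changed sign in A375 at 6 days, APAF1 (-0.161) and FBXO22 (-0.523) in CHL1 under PRMT5i (-0.162 and -0.525 with the block as well), and ASCC3 (-0.293) between the lines under PRMT5i. Between PRMT5i and CDK4/6i in CHL1 these were AEN (0.359), APAF1 (-0.112), BAX (0.091), RRM2B (-0.431), FBXO22 (-0.406) and KITLG (-0.036). Against the 72-hour A375 control, 9 members were higher and 6 lower at 6 days, beside 3362 and 3097 of all 20705 genes. There GDF15 (-1.024), AEN (-0.285), BAX (-0.201), ASCC3 (0.277), SESN1 (0.417) and KITLG (0.536) changed sign. Between the controls of the lines, PERP (-0.19) and FDXR (0.055) changed sign with the 6-day A375 control but not with the GC correction added (0.553 and -0.793), where CCNG1 (0.212) did.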
